A study of Mus musculus with 550 samples.

Results

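The Rhox genes form a cluster of homeobox genes on the mouse X chromosome, and 6 of them are described here in single cells of embryoid bodies (EBs): Rhox1, Rhox5, Rhox6, Rhox9, Rhox10 and Rhox13. They are 6 of 55228 gene rows of the count table, which holds 36 further rows whose name starts with Rhox. The 6 were selected on measured read counts of these same cells, so their levels and differences are given as a description, with no test. The cells came from E14 mouse embryonic stem cells, an established line, that were left without LIF to form EBs for 3 or 9 days. Stem cells of 3 genotypes were used, WT, 3AKO (Dnmt3a homozygous knockout) and 3BKO (Dnmt3b homozygous knockout). The study's methods name independent clones for each mutant and pooled EBs, but the labels do not tell which clone or culture a cell came from. Each genotype at each day is therefore 1 sample here, and cells are not replicates of it. The cells of each genotype and day fall into batch 1 and batch 2, as the sample titles name them, and these are given side by side. At day 9 each genotype was on a single plate that held both batches (WT 234, 3AKO 236, 3BKO 238). Genotype and plate cannot be told apart there, and likeness of the batches is not replication.

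Rhox genes encode homeobox transcription factors that are known mainly from the testis, epididymis, ovary and placenta. In most somatic cells the cluster is silent, and its promoters carry DNA methylation, a mark that DNMT3A and DNMT3B, the de novo methyltransferases, place on cytosines followed by guanine (CpG). Rhox5, also known as Pem, was the founding member, and Rhox6 and Rhox9 are known as placenta-specific homeobox genes. Rhox10 and Rhox13 are known from male germ cells, and Rhox1 from the testis.

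Of 550 sorted cells, 486 had at least 50000 assigned reads, at least 2000 detected genes and at most 50% of reads on mitochondrial genes, and these were kept. At day 3 they numbered 79 of 91 WT cells, 83 of 91 labelled 3AKO and 80 of 91 labelled 3BKO. At day 9 they numbered 89 of 91 in WT, 88 of 93 in 3AKO and 67 of 93 in 3BKO, the group that lost the most cells. Shares of cells are of kept cells. A kept cell had 54720 to 1450202 reads, with a median of 263902. The genes named by the knockouts were checked against the labels, in CPM, the reads of a gene in the summed cells scaled to a common total of assigned reads. At day 9 WT cells had 166 CPM of Dnmt3a, 3AKO cells 25.2 and 3BKO cells 63.03, and the levels of Dnmt3b were 167, 252 and 16.4 CPM. At day 3 the batch 1 cells labelled 3AKO (plate 211) had 25.8 CPM of Dnmt3a, but the batch 2 cells labelled 3AKO (plate 210) had 335 CPM and those labelled 3BKO (plate 211) 12.8 CPM. Dnmt3b did not part these plates in the same way: it was at 567 CPM on plate 209, at 134 on plate 210 (167 and 85.1 by batch) and at 228 on plate 211 (261 and 185 by batch), so both mutant plates were below WT. By Dnmt3a, the day 3 batch 2 mutant libraries thus went against their labels, so day 3 mutants are called by their label and are also given by plate (209 holds WT). Of the 14 naive pluripotency genes checked, 13 or 14 reached a read in 20% of cells of a day 9 group, against 1 to 3 of 14 mesoderm and endoderm genes. The same held for 9 of 12 primed epiblast genes and 6 of 14 neural ectoderm genes. Batch 2 cells had more mitochondrial reads, with group medians of 9.09% to 13.5% against 3.58% to 6.31% in batch 1.

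The members lie on the X chromosome of GRCm38 (GENCODE vM21), between 37213804 and 38129967, a span of 916 kb. Rhox1 is at 37213804-37222258 on the minus strand, Rhox5 at 37804842-37808876 on the plus strand and Rhox6 at 37826910-37829857 on the plus strand. Rhox9 is at 37899097-37901770 on the minus strand, Rhox10 at 38066475-38071691 on the plus strand and Rhox13 at 38121219-38129967 on the plus strand. The counts cover exons of these protein-coding genes. The 250 bases before the RefSeq start (GRCm38.p6) are shown for the 4 members that the promoter table holds, since DNA methylation acts on their CpGs, which are in capitals. They are written 5′ to 3′ on the strand of the gene.
Rhox1 promoter: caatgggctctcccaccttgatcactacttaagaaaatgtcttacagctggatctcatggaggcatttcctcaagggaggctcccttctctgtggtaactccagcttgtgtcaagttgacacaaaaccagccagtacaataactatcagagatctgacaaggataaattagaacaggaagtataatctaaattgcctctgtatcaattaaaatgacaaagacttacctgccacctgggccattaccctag
Rhox5 promoter: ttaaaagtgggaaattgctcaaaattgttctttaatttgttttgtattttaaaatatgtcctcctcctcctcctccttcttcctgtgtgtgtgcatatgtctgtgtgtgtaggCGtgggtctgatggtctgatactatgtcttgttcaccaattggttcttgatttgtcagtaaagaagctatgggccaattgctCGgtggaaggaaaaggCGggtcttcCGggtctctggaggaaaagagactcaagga
Rhox10 promoter: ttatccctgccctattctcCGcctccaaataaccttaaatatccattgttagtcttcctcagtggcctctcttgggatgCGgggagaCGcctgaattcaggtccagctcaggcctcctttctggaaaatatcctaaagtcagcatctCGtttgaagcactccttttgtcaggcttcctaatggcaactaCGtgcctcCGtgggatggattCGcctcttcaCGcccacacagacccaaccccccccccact
Rhox13 promoter: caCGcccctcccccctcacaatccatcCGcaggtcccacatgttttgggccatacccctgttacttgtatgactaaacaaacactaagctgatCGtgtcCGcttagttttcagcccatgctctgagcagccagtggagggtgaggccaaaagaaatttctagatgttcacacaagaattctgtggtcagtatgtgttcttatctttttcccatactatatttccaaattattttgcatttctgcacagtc
The Rhox1 window lies at chrX:37222259-37222508 and holds 0 CpG, a state shared by 7.87% of the 32851 promoter windows of the table. The Rhox5 window at chrX:37754358-37754607 holds 4, the Rhox10 window at chrX:38066225-38066474 holds 8 and the Rhox13 window at chrX:38120590-38120839 holds 4. The median of all windows was 6, and 62.2% held at least 4 and 43% at least 8. The RefSeq start of Rhox5 lies 50.2 kb from the GENCODE start and that of Rhox13 0.379 kb from it, while those of Rhox1 and Rhox10 coincide. Methylation itself was not measured in these files.

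Rhox6 and Rhox9 are near copies, and their likeness decides which reads can be told apart. Their coding sequences, read from GENCODE vM21 transcripts, are 684 bases each and identical at 620 positions (90.6%), while the other pairs of members reach 45.1% to 50%. The start of each coding sequence is shown with the 6 differing bases in capitals.
Rhox6 coding start: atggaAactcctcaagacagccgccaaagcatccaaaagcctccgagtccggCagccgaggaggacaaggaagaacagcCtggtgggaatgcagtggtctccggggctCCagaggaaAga
Rhox9 coding start: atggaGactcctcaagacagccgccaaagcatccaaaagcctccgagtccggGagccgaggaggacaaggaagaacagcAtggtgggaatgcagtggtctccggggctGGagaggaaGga
The longest run common to both coding sequences covers 161 bases, from 167 to 327 of either, and a read within it cannot be assigned.
Rhox6 and Rhox9 shared run: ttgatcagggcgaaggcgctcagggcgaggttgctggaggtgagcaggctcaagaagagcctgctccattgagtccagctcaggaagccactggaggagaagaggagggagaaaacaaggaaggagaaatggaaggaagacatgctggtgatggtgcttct
Of the windows of 75 bases (the read length) in annotated transcripts, 88.4% of those of Rhox6 and 95.7% of those of Rhox9 were found in no other gene, and the 109 others of each were shared by the pair. The windows of Rhox1, Rhox5, Rhox10 and Rhox13 were found in no other gene (100%). Reads that aligned to several places were excluded from the counts, so Rhox6 and Rhox9 lose some reads to this and their ratio is uncertain to that extent. No other gene's exons overlap those of the members.

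The 6 members held 6489 of the 6594 reads on Rhox rows in the kept cells (98.4%). Rhox5 had 2523 reads in 31 cells, Rhox9 1804 in 23 cells, Rhox6 1570 in 31 cells, Rhox13 379 in 51 cells, Rhox10 189 in 14 cells and Rhox1 24 in 18 cells. Thus the members were rare: 122 of 486 cells (25.1%) had a read of any of them. Of the 36 other Rhox rows, 25 had 0 reads and the other 11 had at most 34 reads in at most 13 cells. The 25 copies of the Rhox2, Rhox3 and Rhox4 families had 35 reads, with a median of 26.5% of windows found in no other gene, so multi-mapped reads of these copies could not be counted. That count leaves out Rhox2-ps, a pseudogene with 34 reads in 13 cells and 100% of its windows found in no other gene. Rhox8, Rhox11 and Rhox12 also had 0 reads, with 95.3%, 100% and 100% of windows found in no other gene.

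**Figure D1:**
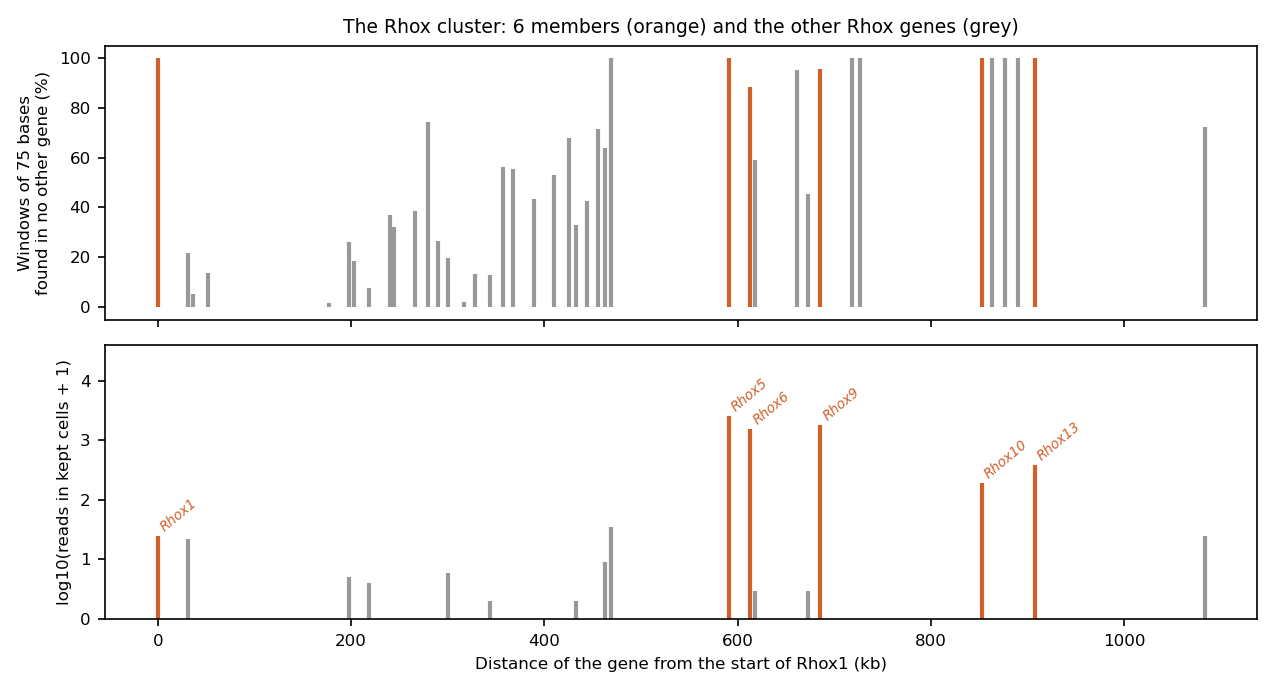
Share of windows of 75 bases found in no other gene (upper panel, percent) and log10 of reads in kept cells plus 1 (lower panel) for each Rhox gene, against its distance in kb from the start of Rhox1. The 6 members are orange, and the reads concentrate on Rhox5, Rhox6 and Rhox9, the 3 members with 1570 to 2523 reads.

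Rhox5 had the highest level of the members per length in 3AKO cells at day 9. Its summed level was 31.9 CPM in WT batch 1 and 0 in WT batch 2 at day 3, and 1.79 and 16.8 CPM in WT at day 9. In 3AKO at day 9 it was 52.96 and 40.3 CPM, and in 3BKO at day 9 7.34 and 29.05 CPM. Both 3AKO values lie above the other 4 day 9 values, and the 3BKO values overlap those of WT. The day 3 WT value came from 1 cell of 79 with 359 reads, so it says nothing of the other cells. At day 3 the library labelled 3AKO had 14.4 CPM in batch 1 and 0.124 in batch 2, and that labelled 3BKO 1.24 and 0.811. By plate, plate 211 was at 8.505 CPM and plate 210 at 0.795. In 3AKO at day 9, 10 of 88 cells had a read, all 10 of them at least 5 reads, with 1138 reads in sum (47.7 CPM, exact Poisson 95% interval 44.97 to 50.6, covering counting error only). Of these 10 cells, 9 were in batch 1 and 1 in batch 2, and the batch 2 level is that 1 cell with 399 reads. In WT at day 9, 194 of 242 reads came from 1 cell of the 3 with a read, and in 3BKO 467 of 575 reads from 1 cell of 7. The 3AKO to WT fold was 6.86. Without the cell that held the most reads in each group, 3AKO was at 31.6, WT at 1.39 and 3BKO at 3.71 CPM.

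Rhox6 reached the largest share of cells of any member in any group, and its level was highest in 3BKO at day 9. It was read in 15 of 67 3BKO cells at day 9 (22.4%, exact binomial 95% interval 13.1% to 34.2%), in 7 of 89 WT cells (7.87%, 3.22% to 15.5%) and in 7 of 88 3AKO cells (7.95%, 3.26% to 15.7%). Its summed level was 26.9 CPM in batch 1 and 44.3 in batch 2 of 3BKO, 6.997 and 9.12 CPM in WT, and 12.8 and 0.909 CPM in 3AKO. The 3BKO values lie above all the others in both batches, and those of WT and 3AKO overlap. At day 3, WT had 0 reads in 79 cells (3 counts would be 3.797% of them), and the only reads lay in 2 cells of plate 211, with 11 and 6 reads. The 3BKO batches differed in depth, with a median of 302116 reads per cell in batch 1 and 692321 in batch 2, and their share of cells with Rhox6 was 17.4% and 33.3% before thinning. With each cell thinned to 50000 reads the shares were 13.04% and 33.3%. In 3BKO, 450 of 1097 reads came from 1 cell. Without the cell that held the most reads in each group, the level was 22.2 CPM in 3BKO, 4.45 in WT and 5.43 in 3AKO.

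Rhox9, the near copy of Rhox6, was read in fewer cells but gave as many reads in 3BKO at day 9. Its summed level was 19.4 CPM in batch 1 and 51.02 in batch 2 of 3BKO, 15.96 and 14.5 CPM in WT, and 9.96 and 0 CPM in 3AKO. The 3BKO batch 1 value is close to those of WT, and both 3AKO values are below them. Without the cell with the most reads in each batch, 3BKO was at 4.26 and 13.9 CPM and WT at 4.76 and 0.883 CPM, so that the 3BKO value of batch 1 was then below that of WT. It was read in 8 of 67 3BKO cells, 6 of 89 WT cells and 2 of 88 3AKO cells. In 3BKO 1 cell held 619 of 1102 reads, in WT 1 held 257 of 538 and in 3AKO 1 held 101 of 139. At day 3 the level was 0.101 CPM in WT, and 0.944 on plate 210 and 0.176 on plate 211.

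Rhox10 and Rhox13, genes of the male germ line, were at lower levels. Rhox10 in 3BKO at day 9 was at 7.34 CPM in batch 1 and 1.11 in batch 2, from 6 of 67 cells with a read. In WT at day 9 it was at 1.57 and 0 CPM, all 36 reads from 1 cell, and in 3AKO at 0.430 and 0 CPM from 1 cell. At day 3 its 26 reads lay in 6 cells of plate 211, and plates 209 and 210 had 0 reads in 79 cells each. Rhox13 was spread over more cells than any other member, 51 of 486, with a median of 4 reads in a cell that had one. At day 9 it was at 9.33 CPM in batch 1 and 4.25 in batch 2 of 3BKO, 0.700 and 3.10 in WT and 2.65 and 0.404 in 3AKO. The 3BKO values were above the others, though the lowest of 3BKO and the highest of WT were 4.25 and 3.10 CPM. At day 3 Rhox13 was at 0.964 CPM on plate 209, 1.29 on plate 210 and 1.76 on plate 211. Rhox1, at the far end of the cluster, was read in 18 cells, 12 of them with 1 read, and stayed at or under 0.358 CPM in each group and batch, so no order among groups can be read from it.

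**Figure D2:**
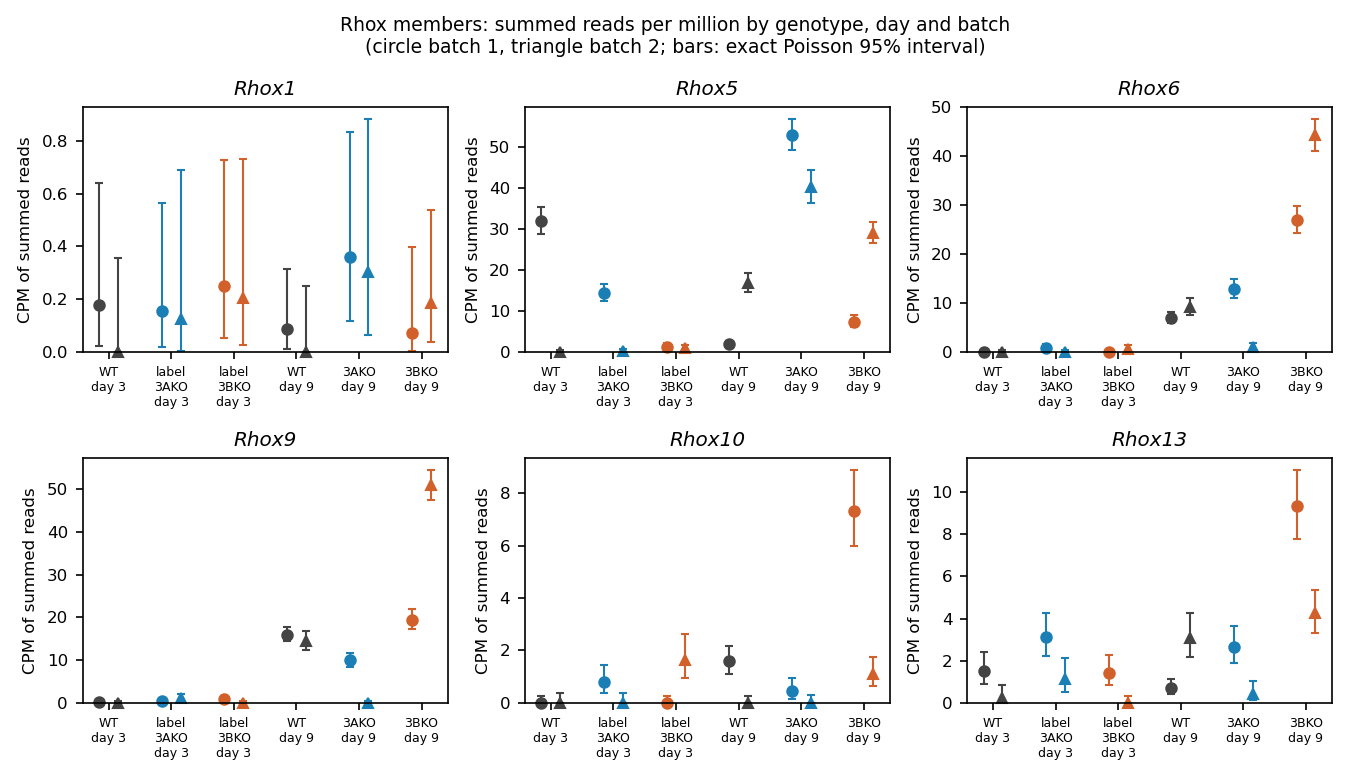
CPM of the summed cells for each member by genotype, day and batch (circles batch 1, triangles batch 2, bars exact Poisson 95% interval). Rhox6 and Rhox13 sit highest in 3BKO at day 9 in both batches, and Rhox5 in 3AKO at day 9, at 52.96 and 40.3 CPM.

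To set the shares of cells on one depth, each cell was thinned to 50000 reads. The share with Rhox6 was then 19.4% in 3BKO at day 9, 7.87% in WT and 6.82% in 3AKO, so it fell below 20% in 3BKO. For Rhox5 the thinned shares were 11.4% in 3AKO, 5.97% in 3BKO and 3.37% in WT, with overlapping intervals. For Rhox9 they were 11.9% in 3BKO, 6.74% in WT and 2.27% in 3AKO. For Rhox10 they were 4.48% in 3BKO, 1.14% in 3AKO and 0 of 89 WT cells, and for Rhox13 10.4% in 3BKO, 3.41% in 3AKO and 3.37% in WT. For any of the 6, the thinned share was 32.8% in 3BKO (21.8% to 45.4%), 18.2% in 3AKO (10.8% to 27.8%) and 14.6% in WT (8.01% to 23.7%) at day 9, and the intervals of 3BKO and WT overlap. At day 3 the same shares were 2.53% on plate 209, 12.7% on plate 210 and 21.4% on plate 211. The unthinned shares were 12.7%, 18.99% and 28.6% in the same order.

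**Figure D3:**
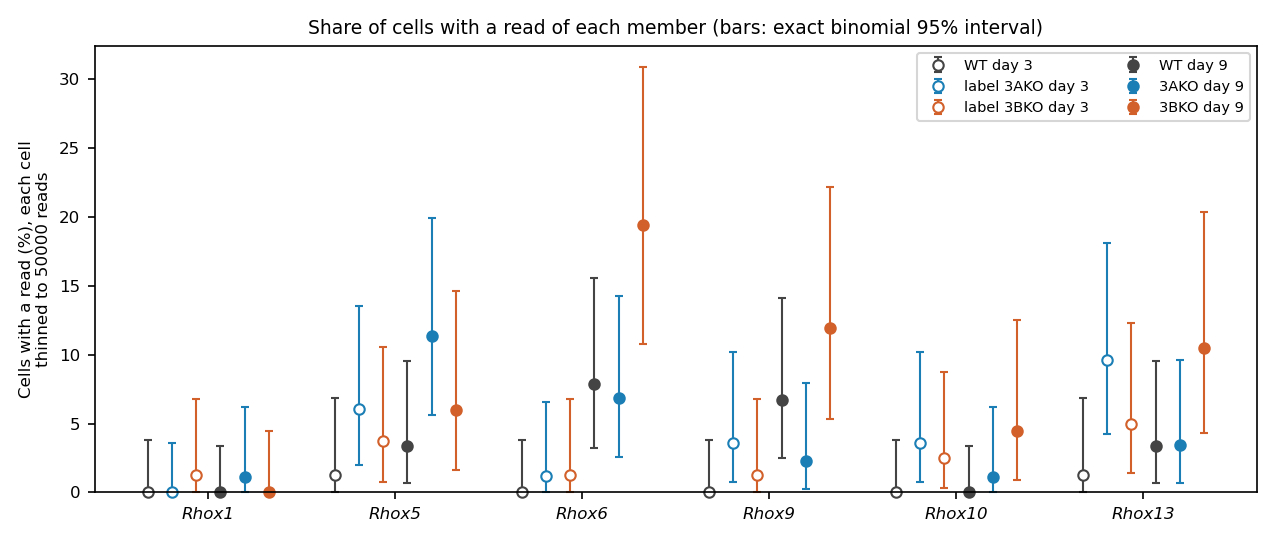
Share of cells (percent) with a read of each member after each cell was thinned to 50000 reads, by genotype and day (bars exact binomial 95% interval, day 3 open circles). The highest point is Rhox6 in 3BKO at day 9, at 19.4%.

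Per kb of merged exons (CPM per kb, a level), Rhox5, Rhox6 and Rhox9 stood highest at day 9 in each genotype, batches pooled. Whether Rhox5 or Rhox6 stood first differed, but their batch values overlap in WT and 3BKO. In WT the order was Rhox5 9.22, Rhox6 7.65, Rhox9 6.21, Rhox13 1.74, Rhox10 1.35 and Rhox1 0.065. By batch, Rhox5 (2.38 and 22.3) overlaps Rhox6 (6.93 and 9.03) and Rhox9 (6.42 and 5.82), and so its place is not resolved. Both values of Rhox6 lie above those of Rhox9, but 6.93 and 6.42 are close. In 3AKO Rhox5 stood first at 63.3, with 70.2 and 53.4 by batch, above Rhox6 at 7.76 and Rhox9 at 2.34. In 3BKO the order was Rhox6 35.9, Rhox5 25.2, Rhox9 14.6, Rhox13 7.54, Rhox10 5.24 and Rhox1 0.150. The batch values of Rhox6, 26.6 and 43.9, overlap those of Rhox5, 9.73 and 38.5.

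A gene was called when 20% or more of the cells of 1 group had a read of it and its log2 ratio, on log2(CPM + 1), was at least 1 in size and of one sign in both batches. With 1 sample a group a call is a fold size, not a test, and all comparisons with WT share the same WT cells. Rhox6 was called higher in 3BKO against WT at day 9, where 3.13% of the 9807 genes were called higher and 5.11% lower. Its log2 ratio was 2.09, with 1.80 in batch 1 and 2.16 in batch 2. It was also called higher in 3BKO against 3AKO at day 9, where 4.77% of genes were called higher and 5.16% lower, at a log2 ratio of 2.07 (1.02 and 4.57 by batch). In the third such comparison, 3AKO against WT, no member reached 20% of cells, and 1.18% of genes were called higher and 1.72% lower. From day 3 to day 9 Rhox6 was called higher in the cells labelled 3BKO, at a log2 ratio of 4.87. Of all genes 6.86% were called higher there and 5.79% lower. As day 3 batch 2 mutant cells went against their labels by Dnmt3a, batch 2 of the mutants' day comparisons may set unlike genotypes side by side. The other members did not reach 20% in any group. Rhox6 reached it only in 3BKO at day 9 (22.4% of cells), with 7.87% in WT and 7.95% in 3AKO. Passing the limit and being higher in 3BKO are thus tied, and its call adds nothing to its levels. Rhox6 in 3BKO lost its call with all cells, with thinned cells and with batch 1 alone, where its share was below 20%. In 3BKO against 3AKO it also lost it without the cell with the most reads. The log2 ratio was then 1.85 with the batches pooled, 0.74 in batch 1 and 4.24 in batch 2.

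Without the limit on cells, a rule chosen after the values were seen, 1 of 6 members was called higher in 3AKO against WT at day 9 (Rhox5), against 1.65% of all genes read, and 0 lower against 1.84%. In 3BKO against WT 2 of 6 were (Rhox6 and Rhox10), against 2.85%, and 0 lower against 4.14%. In 3BKO against 3AKO 3 of 6 were (Rhox6, Rhox10 and Rhox13), against 3.49%, and 0 lower against 4.42%. Rhox9 had log2 ratios of 0.27 and 1.75 by batch in 3BKO against WT and was not called. From day 3 to day 9, Rhox6 and Rhox9 were called higher in WT against 3.93% of genes (0 lower against 1.46%). Rhox5 was called higher in the cells labelled 3AKO against 2.73% (0 lower against 1.93%). Rhox5, Rhox6, Rhox9 and Rhox13 were called higher in those labelled 3BKO against 4.92% (0 lower against 3.39%). In WT, Rhox6 had 0 reads at day 3 and was at least 50.8-fold higher at day 9, against a floor of 3 reads over the group, or at least 29.2-fold without the day 9 cell that held 115 of its 269 reads. At day 3 none of the 6 was called in the cells labelled 3AKO against WT (0.908% of genes higher, 0.517% lower) or in those labelled 3BKO (0.705% and 0.499%). By plate, none was called on plate 210 (0.979% and 0.677%) or plate 211 (1.39% and 0.891%) against plate 209. With the cell with the most reads of the gene also left out of each group and batch, Rhox5 lost its call in 3AKO against WT and from day 3 to day 9 in the cells labelled 3AKO and 3BKO. Rhox10 lost its call in 3BKO against WT, Rhox6 and Rhox10 lost theirs in 3BKO against 3AKO, and Rhox9 lost its call from day 3 to day 9 in WT. Since these genes were chosen on such values, nothing is read from the counts beyond the counts themselves.

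The number of reads in a cell differed widely between members. Rhox1 had at most 2 reads in any cell, and Rhox13 had 1 read in 11 of its 51 cells. Among day 9 cells with a read, Rhox5 reached 921 CPM in 1 3AKO cell, Rhox6 598 CPM in 1 WT cell and Rhox9 1336 CPM in the same WT cell. Rhox10 and Rhox13 reached 109 and 184 CPM in 3BKO cells. Of all reads of a member, the 5 cells with the most held 65.8% for Rhox5, 57.96% for Rhox6, 75.998% for Rhox9, 74.6% for Rhox10 and 45.6% for Rhox13.

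**Figure D4:**
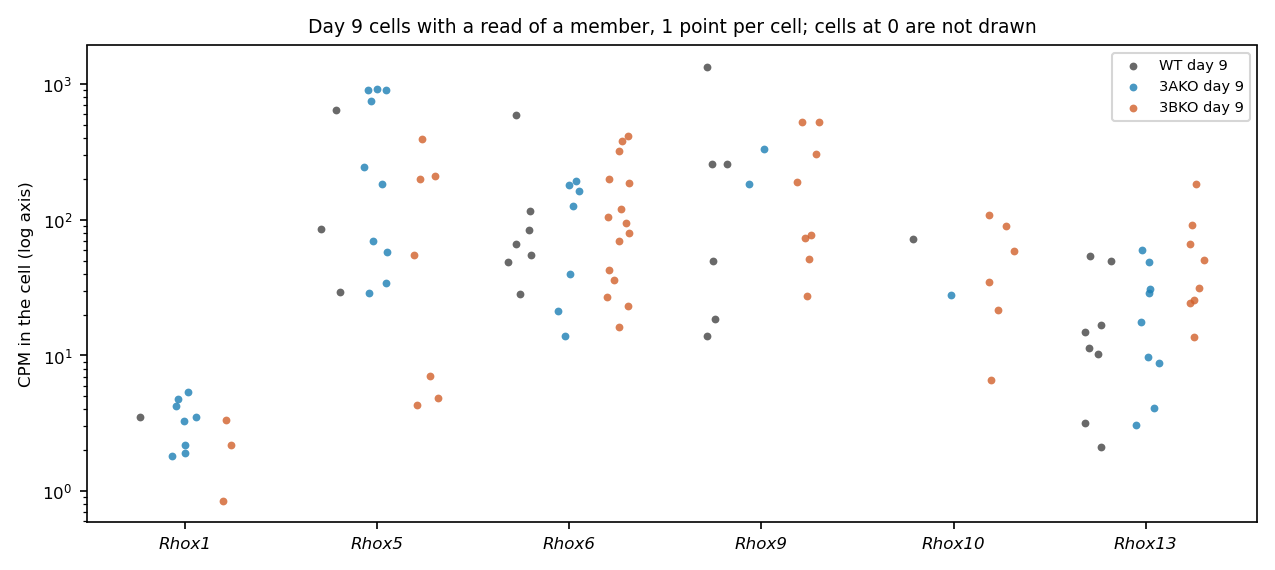
CPM of each member in each day 9 cell with a read (log axis, 1 point per cell, coloured by genotype). The spread within a genotype is wide, with Rhox9 in WT cells up to 1336 CPM, and most cells, at 0, are not drawn.

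Rhox6 and Rhox9 were often read in the same cells at day 9. Of 29 cells with Rhox6 and 16 with Rhox9, among 244, 13 had both. By genotype these were 5 of 7 Rhox6 cells in WT, 2 of 7 in 3AKO and 6 of 15 in 3BKO. In the 13 cells the ratio of Rhox9 to Rhox6 reads ran from 0.16 to 8.5, with a median of 1.26. These ratios are not scaled for length, and the merged exons cover 2488 bases in Rhox9 and 1010 in Rhox6. Cells with Rhox6 alone, 18 over both days, had 3 to 48 reads of it, and the 10 with Rhox9 alone had 1 to 24. The cell with the most reads, in 3BKO, held 467 reads of Rhox5, 450 of Rhox6 and 619 of Rhox9. Of 20 cells with Rhox5 at day 9, 7 also had Rhox6 and 6 also had Rhox9, and in 3BKO 5 of 7 had Rhox6. Rhox10 and Rhox13 shared 3 of the 8 and 25 cells that held them, all in 3BKO. At day 3 no cell had both Rhox6 and Rhox9. At least 2 members were read in 14 of 67 3BKO cells (20.9%, 11.9% to 32.6%), 7 of 88 3AKO cells (7.95%) and 6 of 89 WT cells (6.74%) at day 9. The part of the 109 windows that the pair shares in these counts was not tested.

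**Figure D5:**
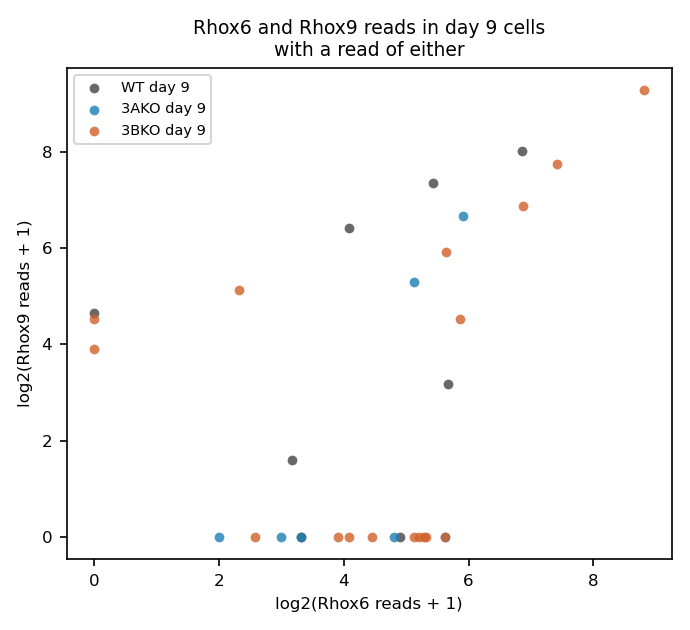
log2 of Rhox6 reads plus 1 against log2 of Rhox9 reads plus 1 in day 9 cells with a read of either, by genotype. The 13 cells with both lie off the axes, with up to 450 and 619 reads.

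The genes beside the cluster are given by the same rule. Of 12 flanking genes, 8 passed the limit on cells at day 9. In 3AKO against WT 0 were higher and 1 was lower (1.18% and 1.72% of all genes). In 3BKO against WT 0 were called either way (3.13% and 5.11%). The lower gene was Nkap, at 11.2 CPM in 3AKO, 30.2 in WT and 37.2 in 3BKO. Their median log2 ratio was -0.20 in 3AKO and 0.18 in 3BKO, beside -0.10 and -0.07 for all genes past that limit. In 3BKO against 3AKO 1 of 8 was higher, again Nkap, at a log2 ratio of 1.64 (1.55 and 2.12 by batch), and 0 were lower, with a median of 0.41 beside 0.01.

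From day 3 to day 9 in WT, 3 of 9 flanking genes past the limit were higher, where 5.27% of all genes were called higher, and 0 were lower, where 2.22% were. They were Rnf113a1, which went from 10.1 to 25.4 CPM, Lamp2, a lysosomal membrane protein, from 37.8 to 141 CPM, and C1galt1c1, a chaperone of O-glycan synthesis, from 9.69 to 37.9 CPM. The median of the 9 was 0.21 beside 0.18 for all genes. Over the same days 0 of 8 were called in the cells labelled 3AKO (2.71% of genes higher, 3.29% lower) or 3BKO (6.86% higher, 5.79% lower). Their medians were 0.67 and 0.63 beside 0.05 and 0.05. At day 3, C1galt1c1 was higher in the cells labelled 3BKO against WT (0.77% of genes higher, 0.451% lower), and 0 of 9 were called in those labelled 3AKO (1.07% and 0.401%). By plate, 0 of 9 were called on plate 210 (1.25% and 0.614%) or plate 211 (2.04% and 1.23%) against plate 209.

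Of 20 genes used mainly in germ cells, 9 passed the limit against WT at day 9. Of all genes, 1.18% were called higher and 1.72% lower in 3AKO, and 3.13% and 5.11% in 3BKO. In 3AKO 4 were higher and 0 lower, with a median of 1.39 beside -0.10 for all genes, and they were Dazl, Hormad1, Smc1b and Tuba3a. In 3BKO 3 were higher and 0 lower, with a median of 1.48 beside -0.07, and they were Dazl, Stra8 and Tex19.1. Dazl, an RNA-binding protein of germ cells, was at 81.2 CPM in 3AKO, 82.2 in 3BKO and 12.8 in WT. Stra8, a gene of meiotic entry, was at 244 CPM in 3BKO, 9.18 in 3AKO and 23.1 in WT. Between the mutants 10 passed it, with 2 higher and 5 lower in 3BKO and a median of -0.54 beside 0.01. Of all genes 4.77% were higher and 5.16% lower there. The 2 were Stra8 and Tex19.1, and the 5 were Sycp3, Mael, Hormad1, Smc1b and Tuba3a. Of 7 genes of primordial germ cell specification past the limit against WT, 0 were called in 3AKO. In 3BKO Prdm14 and Tfap2c, both regulators of germ cell fate, were higher and 0 were lower. Between the mutants, these 2 were higher in 3BKO and Dnd1 was lower, at 7.03 CPM against 31.6 in 3AKO. The median of the 7 past the limit there was 0.08 beside 0.01 for all genes. Tfap2c was at 92.6 CPM in 3BKO, 42.2 in WT and 37.5 in 3AKO.

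Of 3 trophoblast genes past the limit in 3AKO 1 was higher (Krt18), and of 2 in 3BKO 1 was higher (Tfap2c, which stands in both lists). The shares of all genes called against WT stand beside these counts as well (1.18% and 1.72% in 3AKO, 3.13% and 5.11% in 3BKO). Of the 27 genes of DNA methylation and silencing, 23 passed it in 3AKO, with Dnmt3l, the cofactor of the de novo enzymes, higher and Dnmt3a lower. Of 22 in 3BKO, Dnmt3l was higher, and Dnmt3a and Dnmt3b were lower. Dnmt3l was at 128 CPM in 3AKO, 229 in 3BKO and 47.1 in WT. In 3BKO against WT 4 of 14 naive pluripotency genes were higher and 0 lower, 1 of 9 primed epiblast genes was higher and 4 lower, and 0 of 6 neural genes were higher and 2 lower. Of 3 primitive endoderm genes and 3 mesoderm and endoderm genes, 0 were called. In 3AKO against WT none of the genes past the limit in these 5 lists was called (13, 9, 6, 2 and 1 genes). Whether cells at another stage carry the Rhox reads was not tested.

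Over the 12 sums by genotype, day and batch, the genes whose log2(CPM + 1) was most like that of Rhox6, among 11403, were Eif1 with a Pearson r of 0.97, Dnajb4 and Cep57l1 with 0.95, Tmem41b with 0.94 and Tfap2c with 0.94. The 12 sums share cultures and days, so these values are a description.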

How the data were processed

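Single EB cells were profiled with a modified Smart-seq2 protocol (full-length cDNA, no molecular identifiers), and the table holds whole-number read counts per gene and cell that the authors deposited without normalization. Per the labels and the study's methods, the authors trimmed reads (Trim Galore 0.5.0, after FastQC 0.11.2), aligned them with STAR 2.7.1a to mm10 and counted exonic reads by gene name with featureCounts 1.6.1, leaving out multi-mapped reads. Whether counting used strand is not given in the sources used here. The 26 columns that map to no labelled cell were not used.

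Cells were kept as stated in the report, and counts were summed over the cells of a genotype, day and batch, divided by summed reads and put on log2(CPM + 1). Intervals are exact (Poisson, Clopper-Pearson) at 95%, cover counting error only, and a count of 0 was limited at 3 counts. The labels name no culture or clone for a cell, so each group is 1 sample and no test was made. Doublets were not called. The members and gene lists were chosen with earlier results of these data known. The named genes are the 6 members, list genes past the call, Dnmt3a and Dnmt3b, and the 5 genes most like a member that 20% or more of cells in a group had a read of. Alternatives used edgeR 4.0.16 (TMM) and DESeq2 1.42.0 size factors. Scripts ran in Python 3.11.15 (NumPy 2.4.6, pandas 2.3.3, SciPy 1.17.1, Biopython 1.88, matplotlib 3.10.9) and R 4.3.3. The calling rule was also run on simulated cells, where only genes read in 20% or more of WT day 9 cells were changed. No member reached that share in WT, so this run says nothing of calls on the members. Of the table's gene names, 97.0% stand in GENCODE vM21 (the authors used release M23 of the same build), and 42 of 42 Rhox rows matched.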

Additional observations from a re-analysis of the deposited data

Results flagged for a closer look

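Rhox9 at day 9 lay below WT in 3AKO and above it in 3BKO. In each batch its log2 ratio to WT was below 0 in 3AKO (-0.63 and -3.95) and above 0 in 3BKO (0.27 and 1.75). Over both batches the ratios were -1.27 and 1.18, which lie 2.45 apart. With 1 sample a group, this gap was not tested, and 1 cell held 619 of the 1102 reads in 3BKO, 1 held 101 of 139 in 3AKO and 1 held 257 of 538 in WT. Without the cell with the most reads in each batch, the log2 ratios were -0.61 and -0.91 in 3AKO and -0.13 and 2.99 in 3BKO, so the direction of 3BKO in batch 1 turned.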

How the results depend on the processing

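The counts of members called rest on Rhox6 in 3BKO, which was read in 22.4% of cells against a limit of 20%. In 3BKO against WT at day 9, 0 members were called higher, in place of 1, with no cell filter, with batch 1 alone, with cells thinned before summing and with a detection limit of 40%, and 2 with no limit. In 3BKO against 3AKO the same alternatives gave 0, as did leaving out the cell with the most reads of the gene and a pseudocount of 10, while a limit of 10% gave 2 and no limit 3. In the day comparison of the cells labelled 3BKO, the first 4 alternatives gave 0, and a limit of 10% and no limit gave 4. A limit of 10% and no limit gave 1 member (Rhox5) higher, in place of 0, in 3AKO against WT at day 9 and in the day comparison of the cells labelled 3AKO. No limit gave 2 in the day comparison of WT. No limit and no cell with the most reads gave 1 in the day comparison of WT and 3 in that of the cells labelled 3BKO. The alternatives with no limit were chosen after seeing the data. The log2 ratio of Rhox6 ran from 1.38 to 2.21 in 3BKO against WT and from 1.02 to 4.57 in 3BKO against 3AKO. Of 60 log2 ratios of members, 0 left their counting interval with edgeR TMM factors, with DESeq2 size factors or without mitochondrial genes and Gm42418 in the total, 21 did without the cell with the most reads, 22 with batch 1 alone, 32 with batch 2 alone, 27 with thinned cells, 35 with a pseudocount of 10, 30 with one of 0.1, 18 with the mean of single-cell CPM, 2 with no cell filter and 1 with a stricter one. Depth limits Rhox1, with 24 reads in all. Batches were compared side by side, with no test.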
